A study of Mus musculus with 6 samples.

Results

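Collagens are secreted or membrane-bound proteins whose chains wind around each other in groups to form a triple helix, and they are sorted by the structure they build. Fibrillar collagens form striated fibrils, type IV collagens form the sheet of the basement membrane, type VI collagens form beaded filaments, FACITs (fibril-associated collagens with interrupted triple helices) sit on the surface of fibrils, and transmembrane collagens stay anchored in the cell membrane. In the brain most collagen lies in the meninges, around vessels and in the choroid plexus, while some neurons and glia make collagens of their own. The members were all protein-coding genes of GENCODE release M21 whose symbol consists of Col, a number, a and a number. There were 44 of them, all found among the 55335 gene identifiers of the count tables: 11 fibrillar, 6 type IV, 2 multiplexin, 6 type VI, 9 FACIT, 4 transmembrane and 3 short-chain network genes, the anchoring fibril gene Col7a1, and Col26a1 and Col28a1, which fit none of these classes. The rule uses the symbol and no measured value.

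RNA-seq was performed on the striatum of C57 mice, with 3 control samples (genotype WT, titled NC) and 3 samples whose genotype is given as PDE5A overexpressing (titled OE). PDE5A is a phosphodiesterase that breaks down cyclic GMP. The sources used here do not give the age and sex of the mice, the way in which PDE5A was overexpressed, the cells in which this was done or the treatment of the controls. They also do not state that each sample came from its own mouse, and p-values then reflect only how far these samples differ, which may be technical. Values below are CPM, the counts of a gene scaled to a common library total, on library sizes adjusted by TMM, a scaling that assumes most genes do not differ, and 3 values in a row are replicates 1 to 3. Library totals ran from 33013698 to 42288789 counts, of which the 44 genes took between 0.0389% and 0.0548%. Pde5a had 3.72, 4.14 and 6.09 CPM in control against 760.4, 700.5 and 592 CPM in overexpression. Medium spiny neuron markers, which define the striatum, were detected for 19 of 19 genes. Their sum was 9004, 12127 and 7012 CPM in control against 11873, 9210 and 5863 CPM in overexpression. It was thus highest in control replicate 2 and lowest in overexpression replicate 3. Marker levels of other tissue differed between libraries as well. The summed choroid plexus markers were 456, 331 and 323 CPM in control against 925, 3488 and 319 CPM in overexpression. Of these sums Enpp2 made up 379, 276 and 267 CPM against 381, 972 and 282 CPM, and Ttr 48.5, 32.6 and 35.7 CPM against 481, 2243 and 22.5 CPM. The summed markers of glutamatergic cortical neurons were 1680.0, 1184 and 2149.6 CPM against 1515, 1856 and 2774 CPM. Of these Nrgn made up 869, 767 and 909 CPM against 904, 941 and 1223 CPM, and Slc17a7 341, 64.3 and 670 CPM against 195, 434 and 817 CPM. Both sums thus varied less than Ttr and Slc17a7 did.

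Collagen transcripts were present at low to moderate levels. Their sum was 437, 401 and 469.8 CPM in control against 456, 476 and 540.3 CPM in overexpression, that is 436 ± 34.6 and 491 ± 44 CPM (SD, n = 3), so the groups overlapped. Col6a1, which encodes a chain of type VI collagen, made up 21% of the mean sum, and the 5 genes with the highest mean CPM made up 51.6%. Levels of different genes were compared per kilobase of merged exons. On that scale Col6a1 stood first at 22.2 CPM per kilobase over the 6 libraries, followed by Col11a2 at 6.12, Col9a3 at 5.60, Col4a2 at 4.82, Col4a1 at 3.62 and Col25a1 at 3.16. Type I and type III collagen are the bulk of connective tissue fibrils. Here Col1a1 stood at rank 22 of 44 with 0.495 CPM per kilobase, Col1a2 at rank 29 with 0.328 and Col3a1 at rank 41 with 0.0970. With the longest protein-coding transcript as the length, Col6a1 was still first, Col25a1 was at 6.11 and Col1a2 at 0.762 CPM per kilobase, so the order below the first place depended on the gene model. Means were at least 1 CPM for 36 of the 44 genes and below it for 8.

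**Figure D1:**
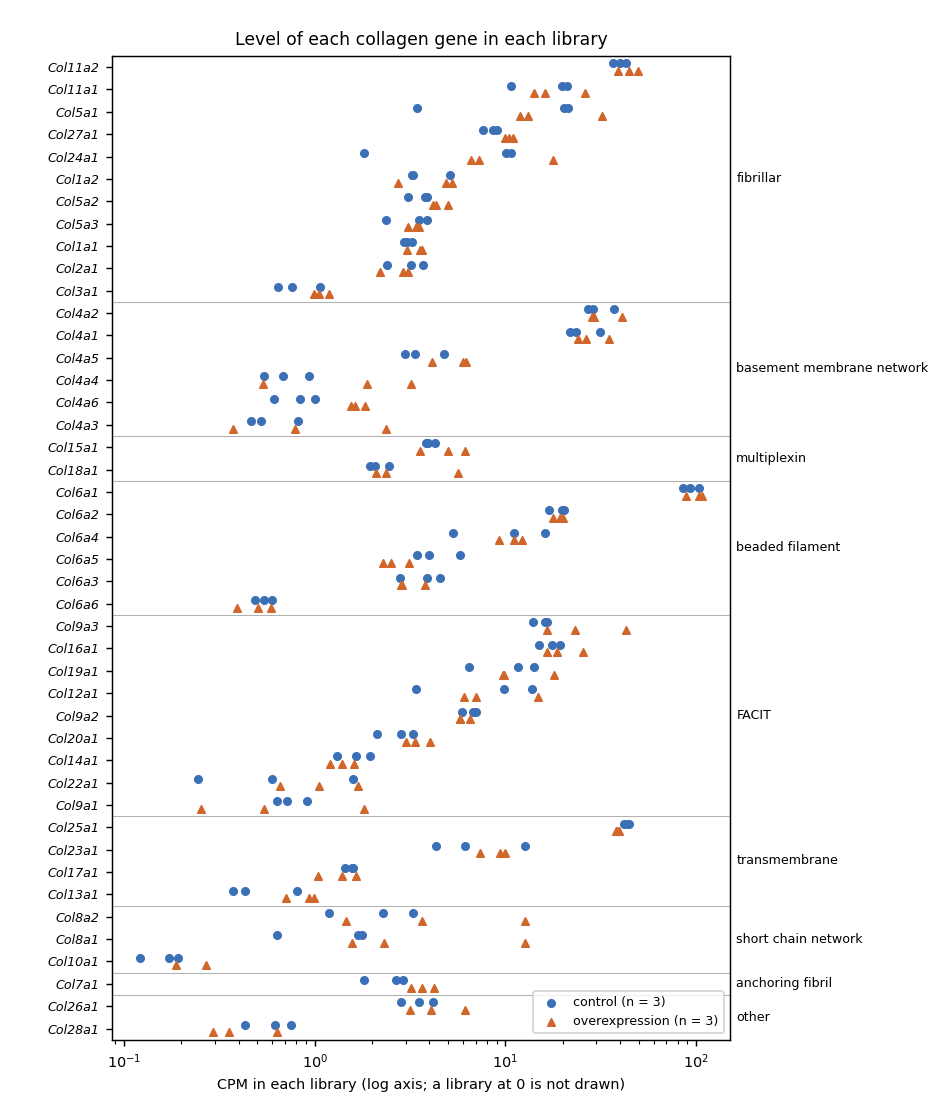
CPM of each of the 44 collagen genes in each of the 6 libraries, on a log axis, grouped by collagen class. Circles are the 3 control libraries and triangles the 3 overexpression libraries; Col6a1 lies at 85.8 to 108 CPM in all of them, while Col5a1, Col24a1, Col8a1 and Col8a2 spread widely within a group.

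The comparison asked which collagen genes differ in the striatum when PDE5A is overexpressed. Of the 44 genes 43 passed the filter on low counts and were tested, Col10a1 being too low, and 0 of the 43 passed the threshold of an adjusted p of 0.05 in edgeR's quasi-likelihood test, where 0.00505% of all 19809 genes tested were called, Pde5a alone. Adjusted p was 0.876 for Col4a6 and above 0.99 for the other 42. The DESeq2 Wald test called 0 of the 43 as well, with 0.419% of the genes called. At an unadjusted p under 0.05 in the edgeR test, 4 members were higher in overexpression (Col4a6, Col4a5, Col27a1 and Col7a1), 9.30% of those tested beside 2.25% of all genes. On the lower side there were 2 members (Col6a5 and Col25a1), 4.65% beside 1.64% of all genes. These counts changed when single libraries were left out, and so did the share of all genes in both directions, which was 3.89% with every library. Without control replicate 1 there were 3 higher and 1 lower members (2.74% of all genes). Without control replicate 2 there were 2 and 1 (2.85%), and without control replicate 3 there were 4 and 1 (4.57%). Without overexpression replicate 1 there were 2 and 1 (5.09%), without replicate 2 there were 4 and 0 (3.1%), and without replicate 3 there were 7 and 2 (4.28%). Leaving out overexpression replicates 1 and 2 together left 1 overexpression library, so members under that p are not listed for it. The 2 groups did not overlap for 5 members that were higher in overexpression (Col4a6, Col27a1, Col7a1, Col5a2 and Col9a3), 11.6% beside 4.81% of all genes, and for 2 that were lower (Col6a5 and Col25a1), 4.65% beside 4.11%.

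The log2 fold change was positive for 33 of the 43 genes, where 50.6% of all genes tested had a positive value, and the median was 0.21 beside 0.002 over all genes tested. The size of this shift depended on single libraries. The median was 0.035 with 25 positive members without overexpression replicate 3, 0.12 with 27 without control replicate 2, and 0.33 with 33 without control replicate 3. With the level of the cortical neuron markers as a covariate it was 0.11 with 26 positive members. Without overexpression replicates 1 and 2, which were high in choroid plexus markers, it was 0.21. That fit rests on overexpression replicate 3 alone, the library with the highest collagen sum (540.3 CPM).

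**Figure D2:**
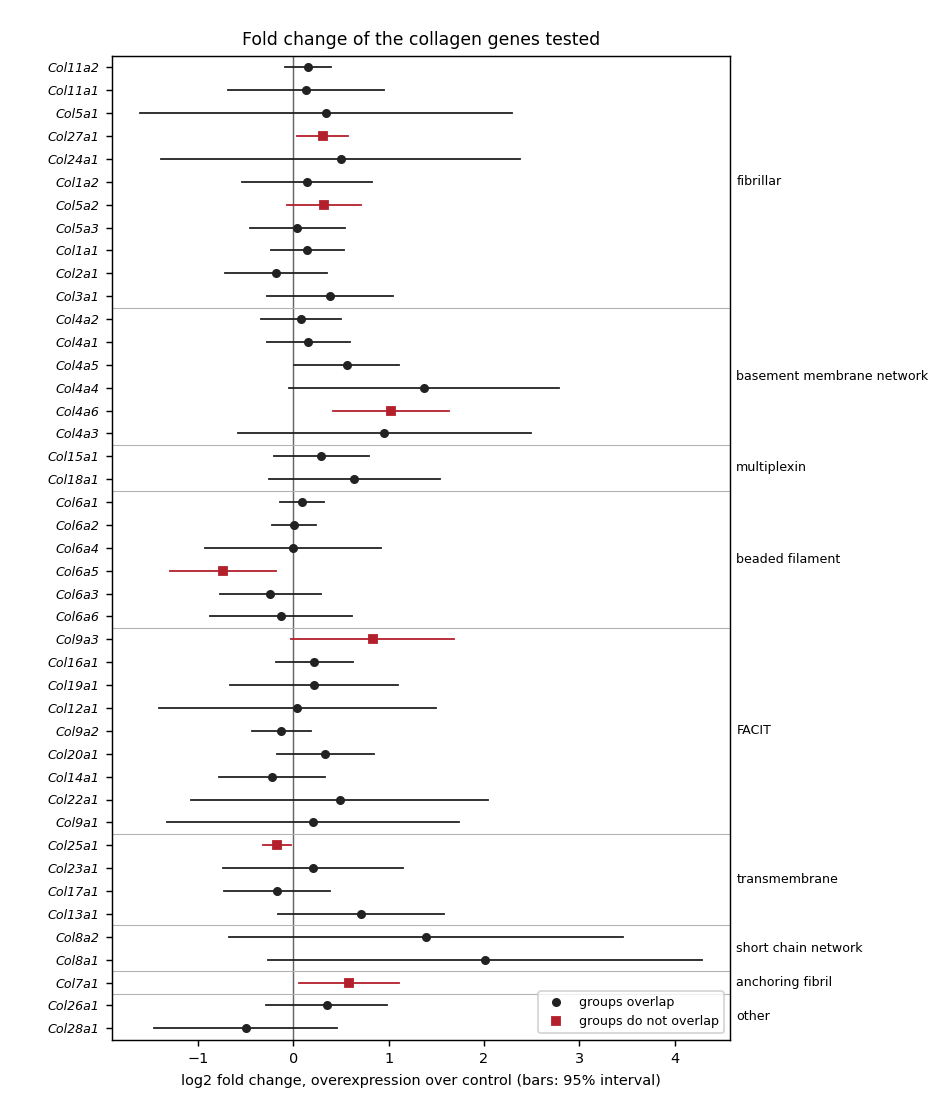
Log2 fold change of each tested collagen gene, overexpression over control, with its 95% interval as a bar, grouped by class; squares mark the 7 genes whose 2 groups do not overlap. The interval of Col4a6 runs from 0.42 to 1.63 and those of Col8a1, Col8a2, Col5a1 and Col24a1 are the widest.

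The fibrillar genes had a median log2 fold change of 0.15 over 11 members, 10 of them positive. Col11a2, a chain of type XI collagen best known from cartilage fibrils, had 40.0, 43.1 and 36.6 CPM in the controls and 49.3, 38.8 and 44.6 CPM with overexpression. Col27a1, another cartilage fibrillar collagen (chromosome 4, 63214004 to 63334991 in mm10), had 9.07, 7.61 and 8.66 CPM in control against 11, 9.93 and 10.5 CPM in overexpression, so that the lowest overexpression library was above the highest control library. Its log2 fold change was 0.31 (SE 0.12) with an interval of 0.04 to 0.58 and an unadjusted p of 0.0284 in the edgeR test. Col5a2, a chain of type V collagen that helps start fibrils, also had separate groups, at 3.1, 3.8 and 3.89 CPM in the controls and 4.33, 4.15 and 4.99 CPM with overexpression.

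Within the same class the largest spread lay inside the groups. Col5a1, the partner chain of Col5a2, had 21.4, 3.44 and 20.3 CPM in control against 13.1, 12 and 32.3 CPM in overexpression. Control replicate 2 was thus several times lower than every other library, and overexpression replicate 3 was the highest. Col24a1, a fibrillar collagen found in developing bone and in cortex, had 10.1, 1.8 and 10.7 CPM in the controls and 6.61, 7.28 and 17.9 CPM with overexpression, with the same lowest and highest library. Col11a1, a partner of Col11a2, had 19.9, 10.7 and 21 CPM in control against 16.1, 14.2 and 26.2 CPM in overexpression and again kept that lowest and highest library. The log2 fold changes of these 3 genes were 0.35 (SE 0.77), 0.49 (SE 0.75) and 0.13 (SE 0.34), so each standard error was larger than the difference. The direction of Col5a1 turned to -0.12 without control replicate 2 and to -0.26 without overexpression replicate 3.

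Of the type I chains, Col1a1 had 3.05, 2.95 and 3.24 CPM in the controls and 3.65, 3.55 and 3.04 CPM with overexpression, and Col1a2 varied more, with 3.27, 5.1 and 3.24 CPM in control against 2.74, 5.23 and 4.88 CPM in overexpression. The ratio of Col1a1 to Col1a2 in CPM varied from 0.579 to 1.33 with no separation of the groups. Col5a3, a further type V chain, had 3.53, 2.36 and 3.86 CPM in the controls and 3.42, 3.1 and 3.52 CPM with overexpression, and Col2a1, the cartilage fibril chain, had 3.72, 3.19 and 2.4 CPM in control against 2.91, 2.2 and 3.1 CPM in overexpression, the one fibrillar gene with a negative log2 fold change (-0.18, SE 0.23). For these 4 genes the groups overlapped, and the 95% interval of the log2 fold change ran from -0.23 to 0.53 for Col1a1 and from -0.54 to 0.83 for Col1a2.

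Type IV collagen is encoded by 6 genes that lie head to head in 3 pairs, each pair read in opposite directions from a shared start region. Col4a1 and Col4a2 form the network found in nearly all basement membranes, that of brain capillaries included, while Col4a3, Col4a4, Col4a5 and Col4a6 make networks restricted to certain tissues and are best known from kidney and skin. In GENCODE M21 (mm10) Col4a1 starts at 11312826 on the minus strand of chromosome 8 and Col4a2 at 11312805 on the plus strand, so the 2 genes overlap by 22 bases. The starts of Col4a4 and Col4a3 on chromosome 1 are 72 bases apart, and those of Col4a6 and Col4a5 on chromosome X are 1309 bases apart. The windows of 250 bases before to 50 after the start from RefSeq (GRCm38.p6) are shown for 3 genes, since they hold the start regions of the pair with the steadiest ratio and of the pair in which both genes had an unadjusted p under 0.05. Capitals mark the CCAAT box, the Sp1-type box GGGCGG, and the TATA box searched as TATAAA, each on either strand.
Col4a2, chr8:11312555-11312854, plus strand: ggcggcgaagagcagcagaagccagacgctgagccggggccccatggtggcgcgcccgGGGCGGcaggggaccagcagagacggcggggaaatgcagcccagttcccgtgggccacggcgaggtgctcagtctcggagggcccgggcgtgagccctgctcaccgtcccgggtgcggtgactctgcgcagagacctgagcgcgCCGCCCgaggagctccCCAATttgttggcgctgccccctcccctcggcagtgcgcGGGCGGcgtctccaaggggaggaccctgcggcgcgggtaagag
Col4a6, chrX:141474027-141474326, minus strand: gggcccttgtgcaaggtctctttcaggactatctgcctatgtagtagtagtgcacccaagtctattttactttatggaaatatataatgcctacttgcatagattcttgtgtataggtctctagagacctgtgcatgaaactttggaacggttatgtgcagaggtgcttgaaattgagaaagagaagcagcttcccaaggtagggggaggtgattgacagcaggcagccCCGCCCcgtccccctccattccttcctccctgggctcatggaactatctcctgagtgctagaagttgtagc
Col4a5, chrX:141475169-141475468, plus strand: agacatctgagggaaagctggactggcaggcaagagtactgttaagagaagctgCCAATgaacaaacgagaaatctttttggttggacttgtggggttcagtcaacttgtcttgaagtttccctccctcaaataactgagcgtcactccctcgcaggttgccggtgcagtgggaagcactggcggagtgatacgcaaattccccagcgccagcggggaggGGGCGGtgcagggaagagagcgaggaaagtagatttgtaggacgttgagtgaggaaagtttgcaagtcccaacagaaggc

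The window of Col4a2 also holds the annotated start of Col4a1, and the RefSeq windows of the 2 genes share 78 bases. It held 1 CCAAT and 3 GGGCGG matches with 73.7% G and C, where the median over 32851 mouse windows was 52.7%. The Col4a6 window held 1 GGGCGG match with 48.3% G and C, and that of Col4a5 held 1 CCAAT and 1 GGGCGG match with 52.7%. TATAAA was found in none of the 3. Across all windows, CCAAT was found in 37.4%, GGGCGG in 35.7% and TATAAA in 13.6%. The matches describe the sequence and were not linked to any factor.

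Col4a6 (ENSMUSG00000031273, chromosome X, 141165403 to 141474076) had the smallest p of all 43 members. It had 1.0, 0.609 and 0.841 CPM in the controls and 1.62, 1.83 and 1.55 CPM with overexpression, from counts of 42, 25 and 34 in control and 64, 61 and 58 in overexpression. All 3 overexpression libraries were above all 3 control libraries. The means were 0.818 ± 0.197 and 1.67 ± 0.149 CPM (SD, n = 3), a 2.03-fold difference with a log2 fold change of 1.02 (SE 0.26), an unadjusted p of 0.00464 and an adjusted p of 0.876 in the edgeR test. Over the other 18 settings tried, its log2 fold change lay between 0.85 and 1.2 in those that kept the gene, and the adjusted p between 0.33 and 1. Leaving out overexpression replicates 1 and 2, which left 1 overexpression library, gave 0.92. Adding the choroid plexus marker level to the model gave 0.90. Col4a6 is named below for following the order of those markers, so neither value is separate evidence.

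Its neighbour Col4a5 had 4.75, 3.36 and 2.99 CPM in control against 6.0, 6.23 and 4.14 CPM in overexpression. Overexpression replicate 3 lay below control replicate 1, so the groups overlapped, and the log2 fold change was 0.56 (SE 0.24) with an unadjusted p of 0.0479 in the edgeR test. Without overexpression replicates 1 and 2 it was 0.16. The ratio of Col4a6 to Col4a5 was 0.211, 0.181 and 0.281 in control and 0.270, 0.295 and 0.374 in overexpression.

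Col4a4 had 0.93, 0.683 and 0.544 CPM in the controls and 1.87, 3.22 and 0.534 CPM with overexpression, and Col4a3, named after its values were seen although its mean was below 1 CPM, had 0.525, 0.463 and 0.817 CPM in control against 0.785, 2.38 and 0.374 CPM in overexpression. Both were highest in overexpression replicate 2, which also had the most choroid plexus marker counts, and both were lowest in overexpression replicate 3. In overexpression replicate 1 Col4a4 was also above all 3 controls. The log2 fold change of Col4a4 was 1.37 (SE 0.60), and without overexpression replicates 1 and 2 it was -0.43. Exons of Col4a3 share 563 bases with C430014B12Rik on the opposite strand, which had at most 0.146 CPM in any library.

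The groups overlapped for Col4a1 and Col4a2. Col4a1 had 23.4, 21.8 and 31.5 CPM in the controls and 24, 26.6 and 34.8 CPM with overexpression, and Col4a2 had 27, 28.9 and 37.2 CPM in control against 29.1, 28.4 and 40.8 CPM in overexpression. Both were highest in overexpression replicate 3 and second highest in control replicate 3, and their ratio stayed between 0.755 and 0.936. Their log2 fold changes came to 0.16 (SE 0.18) and 0.08 (SE 0.18), the intervals running from -0.28 to 0.59 and from -0.34 to 0.50. Markers of endothelial cells, which lay down capillary basement membrane, summed to 315, 403 and 380 CPM in control against 341, 359 and 390 CPM in overexpression. Pericyte and smooth muscle markers summed to 218, 268 and 238 CPM against 234, 244 and 257 CPM. Both sums were highest in control replicate 2, unlike Col4a1 and Col4a2. The part of these markers was not tested.

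**Figure D3:**
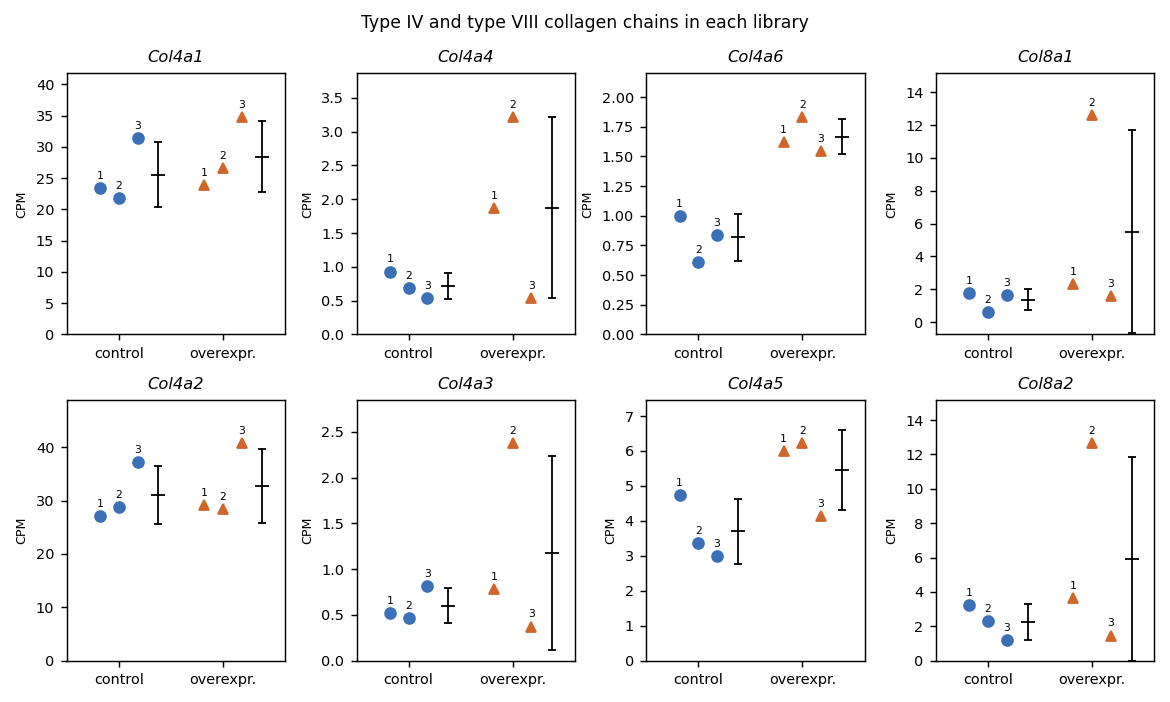
CPM of the 6 type IV and 2 type VIII collagen genes in each library, with replicate numbers beside the points; the bar at the right of each group is the mean with its SD (n = 3). All 3 overexpression libraries exceed all control libraries for Col4a6, and overexpression replicate 2 alone is far above the rest for Col8a1 and Col8a2.

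The multiplexins, basement membrane proteins whose cleaved ends include endostatin, comprise Col15a1 and Col18a1. Col15a1 had 3.91, 3.85 and 4.26 CPM in the controls and 5.02, 3.55 and 6.17 CPM with overexpression, and the groups overlapped. Col18a1, the precursor of endostatin, had 2.08, 1.95 and 2.45 CPM in control against 2.1, 5.65 and 2.38 CPM in overexpression. Overexpression replicate 2 was far above every other library, and the log2 fold change of 0.64 (SE 0.38) was 0.05 without that library.

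Type VI collagen had the highest class sum by group mean, at 133 ± 9.35 in control and 136 ± 10.1 in overexpression (SD, n = 3). Col6a1 (chromosome 10, 76708792 to 76726168) had 85.8, 103 and 93.4 CPM in the controls and 104, 88.6 and 108 CPM with overexpression, with a log2 fold change of 0.09 and an interval of -0.14 to 0.32. Col6a2, whose chain joins that of Col6a1 in the same molecule, had 19.8, 17 and 20.3 CPM in control against 17.9, 19.4 and 20.1 CPM in overexpression. Its level was 0.165 to 0.231 of that of Col6a1 in CPM, and per kilobase it was 2.29 against 22.2 CPM over merged exons and 4.10 against 23.7 CPM over the longest transcript. Col6a3, the usual partner of both chains, had 3.86, 2.8 and 4.55 CPM in the controls and 3.77, 2.89 and 2.83 CPM with overexpression.

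The chains that can take the place of Col6a3 were uneven. Col6a4 had 11.1, 16.1 and 5.32 CPM in control against 12.2, 11 and 9.21 CPM in overexpression, with control replicates 2 and 3 at the 2 ends of the range. Col6a5 (chromosome 9, 105856078 to 105960643) had 5.8, 3.97 and 3.44 CPM in the controls and 3.12, 2.29 and 2.51 CPM with overexpression, with every overexpression library below every control library. Its log2 fold change was -0.74 (SE 0.24), with an interval of -1.30 to -0.18 and an unadjusted p of 0.0163 in the edgeR test. It stayed between -0.88 and -0.48 in the 18 other settings. Markers of neurons of the thalamus, which lies near the striatum, had 9 of 12 negative log2 fold changes and sums of 333 to 387 CPM in control and 316 to 330 CPM in overexpression. The thalamic list was not alone in this. Negative values were found for 11 of 12 astrocyte, 9 of 10 oligodendrocyte, 8 of 11 oligodendrocyte precursor and 16 of 19 medium spiny neuron markers. For the choroid plexus and cortical neuron markers they were 0 of 15 and 1 of 16. None of these markers was at 0 in all libraries, and the part of any list in the Col6a5 difference was not tested.

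The FACITs had a median log2 fold change of 0.22 over 9 members, 7 of them positive. Col9a3, a chain of type IX collagen, had 16.1, 14 and 16.5 CPM in control against 23.3, 43 and 16.6 CPM in overexpression. The groups did not overlap, but overexpression replicate 3 exceeded control replicate 3 by a small margin only (16.6 against 16.5 CPM), and the log2 fold change of 0.83 (SE 0.35) was 0.36 without overexpression replicate 2 and 0.09 without overexpression replicates 1 and 2. Its exons share 234 bases with Tcfl5 on the opposite strand, which had at most 1.88 CPM in any library. The partner chain Col9a2 did not share this pattern, at 6.78, 5.92 and 7.03 CPM in the controls and 5.78, 6.5 and 5.82 CPM with overexpression.

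Other FACITs were lowest in control replicate 2 and highest in overexpression replicate 3. Col19a1, which some neurons make and which is known for a part in synapse formation, had 11.7, 6.46 and 14.2 CPM in control against 9.75, 9.81 and 18 CPM in overexpression. Col12a1, a partner of type I fibrils, had 9.88, 3.39 and 13.8 CPM in the controls and 6.05, 6.98 and 14.8 CPM with overexpression, and Col16a1 had 17.5, 15.1 and 19.3 CPM in control against 18.6, 16.5 and 25.5 CPM in overexpression. The groups overlapped for all 3, with log2 fold changes of 0.22 (SE 0.36), 0.04 (SE 0.59) and 0.22 (SE 0.17). Col20a1 had 2.12, 3.29 and 2.82 CPM in the controls and 3.01, 3.37 and 4.0 CPM with overexpression. Its exons share 79 bases with BX649560.1 on the same strand, which had a higher mean of 10.8 CPM. Col14a1, another partner of type I fibrils, had 1.65, 1.95 and 1.31 CPM in control against 1.39, 1.2 and 1.6 CPM in overexpression. The groups overlapped for both Col20a1 and Col14a1.

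Among the transmembrane collagens Col25a1 was the most abundant. It is made by neurons and is the precursor of a component of amyloid plaques. Col25a1 (chromosome 3, 130131501 to 130599877) had 41.8, 43.6 and 44.8 CPM in the controls and 38.4, 37.9 and 39.3 CPM with overexpression. The overexpression libraries lay close together and all below the controls. The means were 43.4 ± 1.52 and 38.5 ± 0.706 CPM (SD, n = 3), a ratio of 0.888, with a log2 fold change of -0.17 (SE 0.06), an interval of -0.32 to -0.02 and an unadjusted p of 0.0286 in the edgeR test. In the 18 other settings the log2 fold change lay between -0.19 and -0.14. Col23a1 had 6.11, 4.32 and 12.6 CPM in control against 7.35, 9.35 and 9.93 CPM in overexpression, with control replicates 2 and 3 at the ends of the range, and Col17a1, a hemidesmosome collagen, had 1.57, 1.58 and 1.44 CPM in the controls and 1.39, 1.65 and 1.04 CPM with overexpression.

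The short-chain network collagens Col8a1 and Col8a2, which together form the lattice of type VIII collagen, had the largest fitted fold changes of the family and the largest errors. Col8a1 (chromosome 16, 57624258 to 57754737) had 1.77, 0.634 and 1.68 CPM in control against 2.31, 12.6 and 1.57 CPM in overexpression, and Col8a2 (chromosome 4, 126286793 to 126314330) had 3.27, 2.29 and 1.19 CPM in the controls and 3.67, 12.7 and 1.47 CPM with overexpression. Both were highest in overexpression replicate 2. Their log2 fold changes came to 2.01 (SE 0.92) and 1.39 (SE 0.83). These values were 0.51 and 0.19 without overexpression replicate 2, and 0.21 and -0.62 without overexpression replicates 1 and 2.

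Col7a1, which forms the anchoring fibrils of skin, had 1.81, 2.68 and 2.92 CPM in control against 3.65, 3.22 and 4.24 CPM in overexpression, with separate groups, a log2 fold change of 0.58 (SE 0.23) and an unadjusted p of 0.0342 in the edgeR test. Col26a1 had 3.53, 2.83 and 4.18 CPM in the controls and 3.17, 4.09 and 6.17 CPM with overexpression, with overlapping groups. The 8 genes with a mean below 1 CPM were Col3a1, Col4a3, Col9a1, Col13a1, Col22a1, Col28a1, Col6a6 and Col10a1. They ranged from 0 to 2.38 CPM and from 0 to 79 counts in any library, so differences between them were not detectable at this depth unless large. The groups overlapped for all 8.

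Read by library, 15 of the 43 members followed the order of the sum of 1 of 2 marker lists and 28 followed neither. The order of the choroid plexus markers, with overexpression replicate 2 highest and replicate 1 second, was met by 6 of the 43 members (Col8a1, Col8a2, Col9a3, Col4a4, Col4a5 and Col4a6), 14.0% beside 3.77% of all genes tested. All 15 choroid plexus markers had positive log2 fold changes, their sum ran from 323 to 456 CPM in control but from 319 to 3488 CPM in overexpression, and none was at 0 in all libraries. The 6 genes were named for this order, so a fit with the marker level in the model is no separate evidence on them. The part of the choroid plexus markers in their values was not tested. The summed markers of meningeal and perivascular fibroblasts were also highest in overexpression replicate 2, at 251 to 252 CPM in control against 273, 424 and 298 CPM in overexpression. Of the tested markers 14 of 17 were positive. Igf2, Igfbp2 and Ptgds were highest in that library at 106, 45.7 and 175 CPM, as were Slc6a20a, Lepr, Foxd1 and Alx4. The tested markers Slc6a13, Slc22a6, Slc13a3, Foxc1, Cemip, Tbx18, Pdgfra, Mgp, Crabp2 and Aldh1a2 were not highest there. The part of the fibroblast markers was not tested.

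In the other order control replicate 2 was lowest and overexpression replicate 3 highest, as for the summed cortical neuron markers. It was met by 9 members (Col5a1, Col24a1, Col11a1, Col12a1, Col19a1, Col22a1, Col16a1, Col26a1 and Col4a1), 20.9% beside 7.94% of all genes tested. Of 16 cortical markers 15 had positive log2 fold changes, with sums of 1184 to 2149.6 CPM in control and 1515 to 2774 CPM in overexpression, and none was at 0 in all libraries. The cortical markers Rorb, Bhlhe22, Foxp2, Tle4, Lamp5, Rasgrf2 and Rspo1 did not themselves follow this order. The summed medium spiny neuron markers had the reverse extremes, highest in control replicate 2 and lowest in overexpression replicate 3. These 9 genes too were named for the order. The part of the cortical and medium spiny neuron markers in their values was not tested. In these bulk samples more cells of a type and more RNA per cell cannot be told apart.

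**Figure D4:**
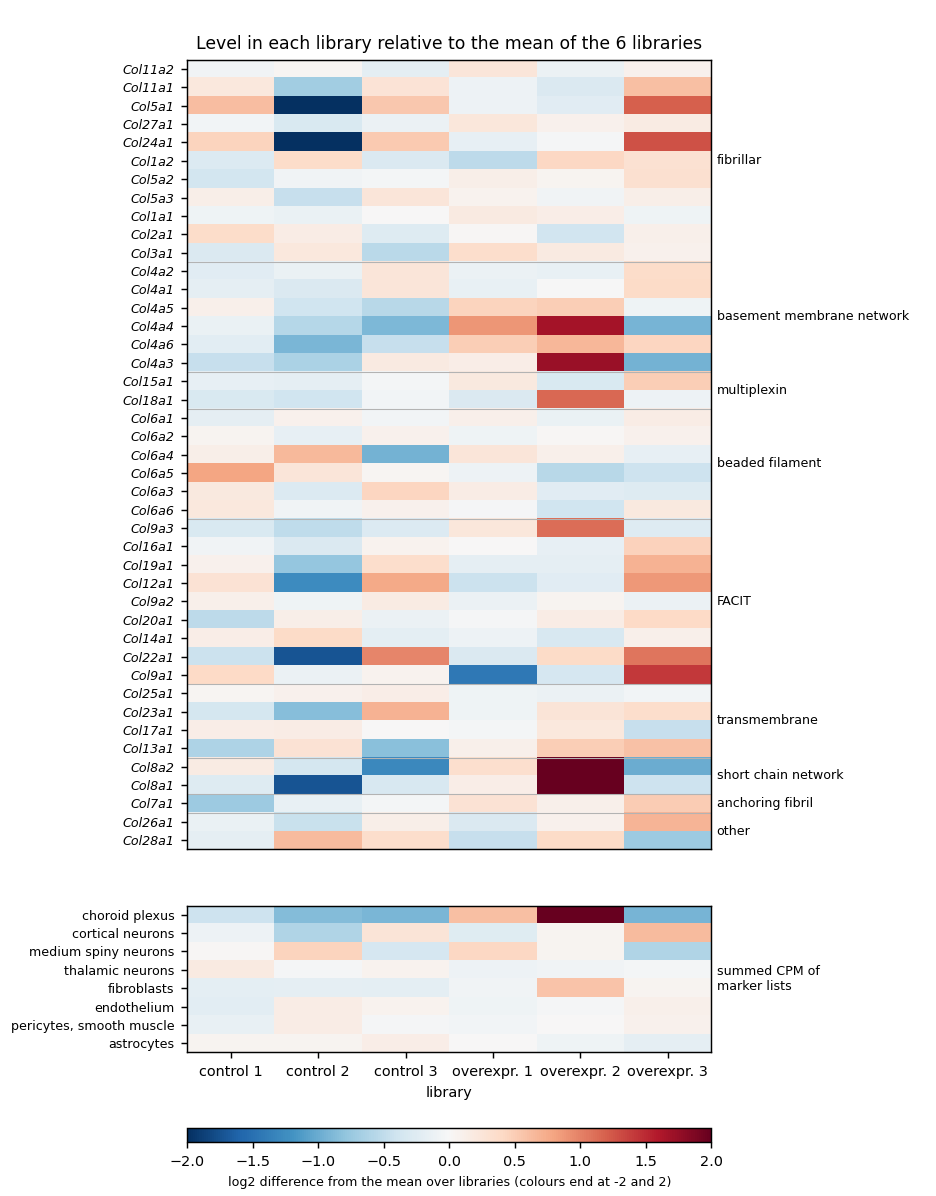
Log2 level of each tested collagen gene (upper panel) and of the summed CPM of 8 marker lists (lower panel) in each library, relative to its mean over the 6 libraries; red is above and blue below the mean. Col8a1, Col8a2, Col4a3 and Col4a4 share the red column of the choroid plexus markers in overexpression replicate 2, and Col5a1 and Col24a1 are blue in control replicate 2 with the cortical markers.

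Genes that make, cut, bind and break down collagen were taken from 7 lists with 107 members, of which 102 were tested. In the edgeR test 0 of the 102 passed the threshold, with 6 higher and 2 lower at an unadjusted p under 0.05, that is 5.88% and 1.96% beside the 2.25% and 1.64% of all genes. The counts of positive values that follow stand beside the 50.6% over all genes. The list for modification and folding had 16 of 21 positive values and a median log2 fold change of 0.07. P4ha1, a prolyl 4-hydroxylase that stabilises the triple helix, had 42, 43.2 and 41 CPM in control against 53.6, 46.2 and 47.4 CPM in overexpression, with separate groups, and Plod1, a lysyl hydroxylase, had 24, 23 and 19.7 CPM in the controls and 18.5, 19.5 and 19.3 CPM with overexpression, lower with separate groups. Procollagen cleavage and crosslinking had 10 of 13 positive and a median of 0.18. Pcolce, an enhancer of procollagen cleavage, had 1.77, 2.34 and 2.13 CPM in control against 3.57, 7.43 and 2.78 CPM in overexpression, with the highest value again in overexpression replicate 2, while Bmp1, the protease that it assists, had 35.1, 29.4 and 42.2 CPM in the controls and 42.6, 39.1 and 56.9 CPM with overexpression.

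Collagen receptors had 5 of 10 positive and a median of 0.005. Adgrg1, a receptor of collagen III in the developing cortex, had 48.3, 52.3 and 48 CPM in control against 43.8, 47.6 and 43.3 CPM in overexpression, and the integrin subunit Itga10 had 1.31, 1.66 and 1.66 CPM in the controls and 1.98, 1.83 and 1.79 CPM with overexpression. Breakdown enzymes and their inhibitors had 6 of 14 positive and a median of -0.10. Timp4, an inhibitor of matrix metalloproteinases, had 31.6, 29.4 and 28.6 CPM in control against 25.2, 24.7 and 21.2 CPM in overexpression, every overexpression library being below every control library, with a log2 fold change of -0.33 (SE 0.09). Mmp2, a gelatinase that cuts type IV collagen, had 1.86, 2.68 and 2.75 CPM in the controls and 3.65, 3.34 and 3.63 CPM with overexpression, every overexpression library being above every control library.

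The TGF-beta list, whose ligands induce collagen genes, had 11 of 14 positive and a median of 0.12. Smad7, an inhibitor of that pathway, had 29.2, 27.7 and 27.8 CPM in control against 30.4, 30.9 and 31.3 CPM in overexpression. The partner genes of the basement membrane had 7 of 14 positive and a median of 0.001. Lama5, a laminin chain, had 8.47, 10.3 and 9.13 CPM in the controls and 11, 15 and 12.5 CPM with overexpression, and Sparc, a collagen-binding protein, had 311, 269 and 216 CPM in control against 231, 194 and 147 CPM in overexpression, with an overlap between control replicate 3 and overexpression replicate 1. Small proteoglycans and fibril partners had 11 of 16 positive and a median of 0.09. Fmod, which binds collagen fibrils, had 1.31, 1.54 and 0.99 CPM in the controls and 1.95, 1.93 and 2.38 CPM with overexpression, and Thbs1, an activator of TGF-beta, had 0.811, 0.805 and 0.99 CPM in control against 1.44, 2.59 and 1.04 CPM in overexpression. The adjusted p was at least 0.98 for all 102 genes in edgeR's quasi-likelihood test.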

How the data were processed

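Total RNA from striatum was isolated with Trizol and made into strand-specific TruSeq libraries, per the labels' protocols. The deposited files hold raw counts, whole numbers per Ensembl gene, 1 file per sample. The build was mm10, and the tools named are STAR 2.5.3a, DESeq 1.16.1, FastQC 0.11.5 and Cuffnorm, without a role for any, per the submitters' processing notes. The sources used here do not give the counting program or its strand setting, so reads of overlapping genes cannot be told apart: 13 of the 44 collagen genes share exon bases with another gene.

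Samples were grouped by title. Of 55335 identifiers, 55154 were matched to GENCODE M21, the source of symbols, coordinates and exon lengths. The test was edgeR's (version 4.0.16, R 4.3.3; TMM, filterByExpr, robust quasi-likelihood F-tests, two-sided, 3 against 3 samples), with Benjamini-Hochberg adjustment over all 19809 genes tested and a threshold of 0.05. Standard errors are the absolute log2 fold change over the square root of F, and 95% intervals use the t distribution with the test's degrees of freedom. DESeq2 1.42.0 and limma-voom (limma 3.58.1) were alternatives. The test was also run on simulated counts, drawn for each gene independently. They hold no shifts in marker levels between libraries, so they cannot show how the test behaves under such shifts. Replicates of a group differed by more than counting noise (chi-square over its degrees of freedom, 20.9 to 54.9), so none was taken for a repeat. Every member with a mean of at least 1 CPM is given in every library, as are the 2 genes of smallest p in each pathway list, except 1 gene that is not reported here. The members, the 20 lists and the tests were chosen with earlier results of these data known. The covariate settings, the length by longest transcript and the fit without both libraries high in choroid plexus markers were chosen after seeing the data. Promoter windows were found for 35 of the 44 genes in RefSeq.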

Additional observations from a re-analysis of the deposited data

How the results depend on the processing

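The count of collagen genes past the threshold was 0 in each of the 18 other settings, with adjusted p from 0.33 upward, and that of the pathway genes was 0 too. The number of all genes past the threshold was 1 and became 83 with the DESeq2 Wald test, 6 with limma-voom, 3 with no filter on low counts, 3 with a threshold of 0.1, 5 when overexpression replicates 1 and 2 were both left out and 6 with the cortical neuron level as a covariate. Leaving out 1 library gave 1 to 2 such genes. The median log2 fold change of the collagen genes lay between 0.035 and 0.33 when 1 library was left out. The cause of these shifts was not tested. At an unadjusted p under 0.05 the DESeq2 Wald test had 7 collagen genes higher and 1 lower, with 3.56% of all genes under that p, beside 4 and 2 with edgeR, with 3.89%. Of the 43 genes 25 kept the sign of their log2 fold change in every setting and 18 did not. Of 645 values of the 36 genes followed, 605 stayed within the standard error and 40 moved further. The setting with a threshold of 0.1 reused the main fit, so its values were the same by design, and 17 of the 18 settings were other fits. The deviations of same-numbered samples had correlations of -0.0202, 0.0272 and 0.292, so only the pair numbered 3 was above 0.1 and the numbers were not taken to pair the samples. With the replicate number as a block 3 genes passed in all, 0 of them collagen genes, and the collagen median was 0.20. At the depth of these libraries, collagen genes with a mean below 1 CPM had at most 79 counts in a library.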
